A study of Mus musculus with 4 samples.

Results

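The 5 genes described here belong to thyroid hormone signalling and were measured in brown adipocytes of the mouse, fat cells that burn fuel to make heat, with or without forced expression of the long noncoding RNA Blnc1. They are Dio2, the receptors Thra and Thrb, and the hormone-responsive genes Thrsp and Klf9. Every probe set whose annotation gave exactly 1 of these symbols was taken, which gave 9 probe sets for the 5 genes, out of 23599 probe sets and 10926 named genes in the deposited table. No source used here says how this table was drawn from the full array, so percentiles and shares of all probe sets describe the table and not the whole array. The rule that picks the probe sets uses gene names and no measured value, and the 5 genes themselves were chosen with earlier results of these data known.

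The Blnc1 cells were brown adipocytes of wild type genotype that had been differentiated from preadipocytes expressing Blnc1 (brown fat lncRNA 1). The vector cells had the same genotype and carried the vector alone. Both were harvested after 6 days of differentiation, and there were 2 arrays per group, labelled as biological replicates 1 and 2. The labels do not say how the preadipocytes were obtained, how the vector was delivered, or whether the replicates came from separate transductions, so p-values measure only the spread between these arrays.

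Brown fat makes its own active thyroid hormone. The type 2 deiodinase, the product of Dio2, removes an iodine from the prohormone thyroxine to give triiodothyronine, which enters the nucleus and binds the receptors encoded by Thra and Thrb. These receptors sit on response elements of target genes, mostly paired with a retinoid X receptor (RXR), and hormone binding exchanges corepressors for coactivators. In brown fat, cold acts through noradrenaline and cAMP to induce Dio2, and triiodothyronine then acts with cAMP on Ucp1, the uncoupling protein gene.

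The stretch upstream of Dio2, the gene that rose in Blnc1 cells, is shown because it holds the cAMP response element letters TGACGTCA. The sequences are RefSeq's on GRCm38.p6, in lower case with motif letters in capitals. Dio2 lies on chromosome 12, minus strand, and its 250 bases before the annotated start are at chr12:90739039-90739288. TGACGTCA reads the same on both strands, and its first base lies 95 bases before the start.
Dio2: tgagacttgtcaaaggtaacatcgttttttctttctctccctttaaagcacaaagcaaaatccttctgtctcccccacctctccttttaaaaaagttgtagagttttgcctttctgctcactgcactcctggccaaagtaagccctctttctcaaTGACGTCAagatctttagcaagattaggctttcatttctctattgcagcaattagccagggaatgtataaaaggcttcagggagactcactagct

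Windows running from 250 bases before to 50 after a start were searched on both strands for 4 sets of letters. These were TGACGTCA, its shorter core TGACG, the receptor half-site AGGTCA, and a direct repeat of 2 AGGTCA half-sites with 4 bases between them, on which a thyroid hormone receptor pairs with RXR. TGACG overlaps TGACGTCA on both strands. Of 32851 RefSeq windows, 1.79% held TGACGTCA, 20.8% TGACG, 16.3% AGGTCA and 0.0152% the direct repeat. Among the 8803 genes of the table with a window the shares were 3.65%, 35.3%, 15.2% and 0.0% of genes, in the same order. Dio2 was the member with TGACGTCA, and no member's window held the direct repeat.

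Shorter stretches are shown for the other members whose windows held one of these motifs. Klf9, on chromosome 19, plus strand, held TGACG 46 bases before its start, within chr19:23141162-23141201. Thrb, on chromosome 14, plus strand, had 2 annotated windows. The first held TGACG 56 bases and AGGTCA 184 bases before its start, within chr14:17660886-17660925 and chr14:17660759-17660798, and the second held none of the 4 motifs. The Thrsp window on chromosome 7 held none of them either, and no window of Thra was used here. A match is a run of letters, and its use as a site was not measured.
Klf9: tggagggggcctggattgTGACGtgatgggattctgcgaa
Thrb, TGACG: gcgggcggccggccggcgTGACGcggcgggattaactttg
Thrb, AGGTCA: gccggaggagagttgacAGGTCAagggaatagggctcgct

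Values are the authors' log2 expression values, on which a step of 1 is a doubling. A difference was said to pass when the adjusted p of limma, a linear model with variances shared across probe sets, was under 0.05. The array medians lay between 5.98 and 6.04, and the replicates of a group differed by a median of 0.10 (Blnc1) and 0.091 (vector) log2 units per probe set. The probe set named C730029A08Rik, a reading of the expressed transcript, stood at 12.73 and 12.75 on the Blnc1 arrays and at 8.08 and 8.14 on the vector arrays. Other signals separated the same groups. The hybridization controls, 18 probe sets for spiked-in transcripts, all read lower on the Blnc1 arrays, by a median of -0.27 (Blnc1 minus vector). The excess of 3' over 5' signal for Gapdh, which grows as RNA degrades, averaged 0.28 on Blnc1 and 0.41 on vector arrays. The Y-linked gene Eif2s3y had a log2 fold change of -1.18 (limma adjusted p = 0.0120), and Xist, an RNA made from the inactive X chromosome, one of 0.55 (limma adjusted p = 0.0479). Their part in the results below was not tested.

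The brown adipocyte label was checked on marker genes, which were listed with earlier results of these data known. Of 9 listed brown adipocyte markers all were measured, 6 rose and none fell. Over all genes, 0.86% passed as higher and 0.366% as lower. Elovl3, Prdm16 and Ebf2 did not pass, with log2 fold changes of 0.27, 0.22 and 0.38. The list's summed log2 level was 81.4 and 81.7 on the Blnc1 arrays, against 70.7 and 70.3 on the vector arrays. Cidea (3.12) and Ucp1 (2.997) had the largest log2 fold changes in it. Of 6 measured general adipocyte markers none passed, with summed levels of 69.97 and 69.6 in Blnc1 and 70.2 and 70.1 in vector arrays. Preadipocyte and fibroblast markers, 4 measured, had a median log2 fold change of -0.38 and none passed, with sums of 20.9 and 21.1 in Blnc1 and 22.3 on each vector array. Of 4 white adipocyte markers 2 fell, Retn and Agt, while Hoxc8 (-0.76) and Lep (0.19) did not pass and differed in sign. The list's sums were 30.5 and 29.9 in Blnc1 against 32.1 and 32.2 in vector arrays. Markers of macrophages (2 measured), endothelium (1) and skeletal muscle (3) all had mean levels below the median of the arrays, and none passed. Whether more brown adipocytes or more of a transcript per cell lay behind a difference cannot be told apart in these bulk samples, and the part of these marker lists in the results below was not tested.

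Dio2 was the gene of the 5 that passed. It was about 2-fold higher in Blnc1 cells, while Thrb read lower without passing (log2 fold change -0.49). The group means of Thra, Thrsp and Klf9 differed by at most 0.23 log2 units on any of their probe sets. All 3 Klf9 probe sets read higher in Blnc1 cells, and the 2 of Thra differed in sign. Of the 9 probe sets of the 5 genes 1 passed, and it was higher. Over all probe sets, 0.928% passed in either direction and 0.623% as higher in Blnc1. The arrays of the groups did not overlap for 7 of the 9, of which 4 were higher and 3 lower in Blnc1, against 50.4% of all probe sets in either direction, so a lack of overlap was common here.

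**Figure D1:**
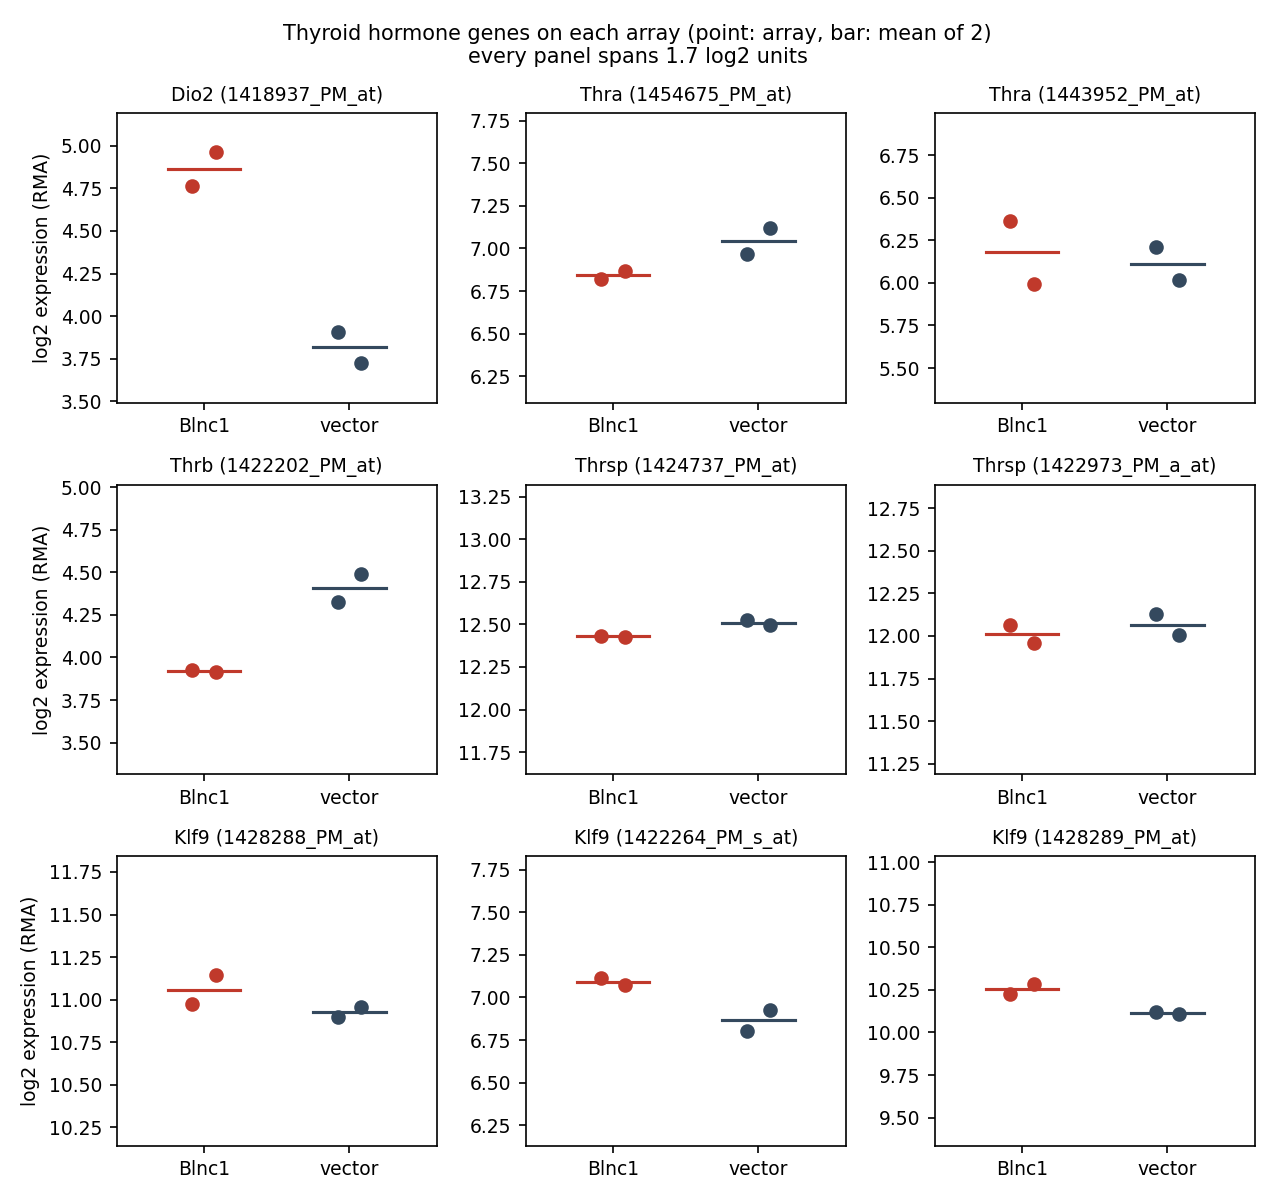
Log2 expression (RMA) of the 9 probe sets on each array, with Blnc1 left of vector; points are arrays and bars are means of 2 arrays, and every panel spans the same range of log2 units. Dio2 read 4.77 and 4.96 on the Blnc1 arrays, above 3.91 and 3.73 on the vector arrays, while the points of the Thrsp and Klf9 panels lie close together.

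Dio2, the activating deiodinase, was read by 1 probe set (1418937_PM_at). Its log2 values were 4.77 and 4.96 on the Blnc1 arrays and 3.91 and 3.73 on the vector arrays. Both Blnc1 arrays lay above both vector arrays, and the gap between the nearest arrays, 0.86, was larger than the distances between replicates, 0.20 in Blnc1 and 0.18 in vector cells. The means were 4.86 ± 0.14 in Blnc1 and 3.82 ± 0.13 in vector cells (SD, n = 2 each), a log2 fold change of 1.05 ± 0.11 (SE) with limma adjusted p = 0.0289. On a linear scale this was a 2.07-fold rise, with a 95% interval of 1.72 to 2.48. The rise ranked 26th in size among the 10926 genes.

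The Dio2 signal was dim. Its mean over the 4 arrays stood at the 13.2th percentile of all probe sets and below the cut-off of the lowest 25%, 4.77, and the RMA method compresses fold changes at this end of the scale. The call did not hold when any single array was left out, with log2 fold changes of 0.95 to 1.15. Such fits leave 1 array in a group and fewer residual degrees of freedom. Most calls over the whole table were lost in them too, so this loss was not particular to Dio2.

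Dio1, which both activates and clears the hormone, and Dio3, which inactivates it, were not analysed here, so Dio2 stood alone for the deiodinases.

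Neither receptor gene passed; Thrb and 1 of the 2 Thra probe sets read lower in Blnc1 cells. Thrb (1422202_PM_at), the receptor on which much of the induction of Ucp1 by triiodothyronine is known to depend in mice, read 3.92 on each Blnc1 array and 4.33 and 4.49 on the vector arrays. The groups did not overlap, and the nearest arrays were 0.40 apart. The log2 fold change was -0.49 ± 0.089 (SE), with a 95% interval of -0.71 to -0.27 before adjustment for the number of probe sets and limma adjusted p = 0.0736. With a variance prior that follows intensity Thrb passed (limma adjusted p = 0.0221). So did 2174 of all 23599 probe sets under that prior, beside 219 as reported. Thrb was also dim, at the 8.29th percentile.

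Thra, the other receptor gene, had probe sets that differed in sign. The one with the higher mean (1454675_PM_at) read 6.82 and 6.87 on the Blnc1 arrays and 6.97 and 7.12 on the vector arrays, without overlap, and its log2 fold change was -0.20 ± 0.088 (SE, limma adjusted p = 0.299). The other (1443952_PM_at) read 6.36 and 5.99 in Blnc1 and 6.21 and 6.01 in vector cells. Here the groups overlapped and the Blnc1 replicates lay farther apart than the group means. Its log2 fold change was 0.066 ± 0.14 (SE, limma adjusted p = 0.850), and the sign turned to -0.12 without Blnc1 replicate 1 and to -0.033 without vector replicate 2. Which receptor isoforms the probe sets read was not analysed here.

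Thrsp, whose product Spot 14 supports fatty acid synthesis and responds to thyroid hormone in liver and fat, gave readings close to the highest on the arrays. Its brighter probe set (1424737_PM_at) read 12.43 on each Blnc1 array and 12.53 and 12.49 on the vector arrays. The groups did not overlap, but they were separated by only 0.062 log2 units. The log2 fold change was -0.082 ± 0.075 (SE, limma adjusted p = 0.615), with a 95% interval of -0.27 to 0.10. The other probe set (1422973_PM_a_at) read 12.06 and 11.96 in Blnc1 and 12.13 and 12.01 in vector cells, so the groups overlapped, with a log2 fold change of -0.059 (95% interval -0.27 to 0.16). Readings can be compressed at this end of the scale, which was not tested here, and a difference in either direction could be understated.

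Klf9, a zinc finger transcription factor that triiodothyronine induces in several tissues, was read by 3 probe sets, all higher in Blnc1 cells without passing. The brightest (1428288_PM_at) read 10.97 and 11.14 on the Blnc1 arrays and 10.90 and 10.96 on the vector arrays, a gap of 0.018 between the nearest arrays. The second (1428289_PM_at) read 10.23 and 10.28 in Blnc1 and 10.12 and 10.11 in vector cells. The third (1422264_PM_s_at) read 7.11 and 7.07 in Blnc1 and 6.81 and 6.93 in vector cells. None of the 3 had overlapping groups, and the largest gap between nearest arrays was 0.15. Their log2 fold changes were 0.13 ± 0.091, 0.14 ± 0.077 and 0.23 ± 0.084 (SE), with limma adjusted p of 0.489, 0.393 and 0.223. The highest upper 95% bound among them was 0.43, which is a 1.35-fold rise.

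**Figure D2:**
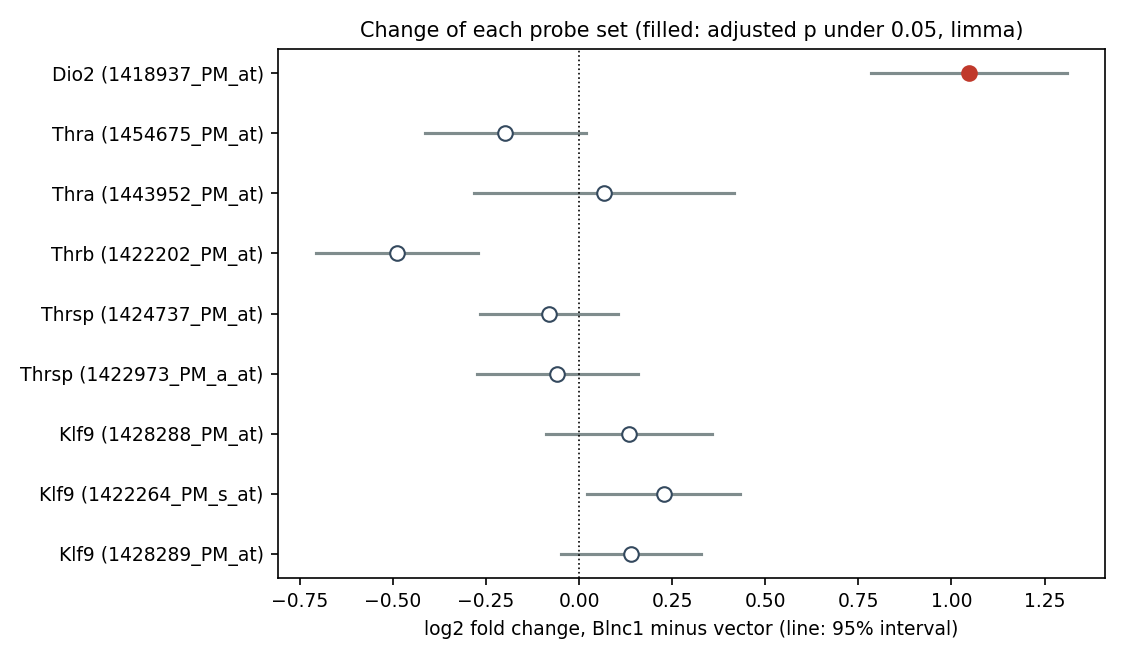
Log2 fold change (Blnc1 minus vector) of each probe set, with its 95% interval before adjustment; filled points passed limma at an adjusted p of 0.05. Dio2 at 1.05 is the filled point, Thrb at -0.49 is the lowest, and the 3 Klf9 points lie between 0.13 and 0.23.

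The pattern over the 4 arrays was also compared. With each gene's 4 values centred on their mean, Dio2 differed from the other members by a root mean square of 0.46 (Klf9) to 0.78 (Thrb) log2 units. By the same measure, over 10925 genes with 1 probe set each, the genes nearest to Dio2 were Tmigd1 (0.040), Gabarapl1 (0.059), which encodes an autophagy protein, and Pdk4 (0.083), a kinase that inhibits pyruvate dehydrogenase. Nearest to Thrb were Mmp14, a matrix metalloproteinase (0.014), Emp1 (0.020) and Dse (0.021). Thra lay nearest to Nol9, Samd4b and R3hcc1l (0.012 to 0.015), Thrsp to Hnrnpk, Nelfe and Arfip1 (0.0029 to 0.0041), and Klf9 to Ccdc47, Triqk and Glmn (0.0071 to 0.0086). Small differences are common among genes that barely varied, so the distances of Thra, Thrsp and Klf9 carry little information. For Dio2 and Thrb the centred values are mostly the group difference, so these distances largely restate the fold changes. The log2 fold changes of Tmigd1, Gabarapl1 and Pdk4 were 1.06, 1.10 and 0.92, beside 1.05 for Dio2. Those of Mmp14, Emp1 and Dse were -0.46, -0.47 and -0.49, beside -0.49 for Thrb.

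The rest of the pathway was described with lists of genes by role, 1 probe set per gene. Of 69 listed genes 47 were measured, the 5 members included, and 2 rose and none fell, Dio2 and Ucp1, against 1.23% of all genes that passed in either direction, 0.86% as higher and 0.366% as lower. The median log2 fold change was 0.0090, beside 0.0073 for all genes, and 24 of the 47 were positive, beside 51.6% of all genes. These genes had 31 further probe sets, of which none passed and 7 had the opposite sign. With a variance prior that follows intensity 12 of the 47 passed, beside 2174 of all 23599 probe sets. Slc7a5, Adcy3, Prkar2b, Rxra, Ppargc1b, Nrip1 and Cpt1a, which did not pass as reported, were among those 12.

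Upstream of the receptors, the transporters that carry thyroid hormone into cells were represented by 2 of 7 listed genes, and neither passed. Slc7a5, a large neutral amino acid transporter that also carries thyroid hormone, read 9.16 and 9.08 in Blnc1 and 9.32 and 9.37 in vector cells (log2 fold change -0.22). Slc16a10, a monocarboxylate transporter family member, stood at -0.0051, a sign that turned to 0.047 without vector replicate 1. Its signal was dim, at the 2.11th percentile of all probe sets, so a difference could be missed.

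The cAMP route that induces Dio2 was represented by 4 of 9 listed genes, with none past the test and a median of 0.13. The beta-adrenergic receptor genes were not analysed here. Adcy3, an adenylyl cyclase, read 6.63 and 6.68 in Blnc1 and 6.34 and 6.12 in vector cells, a difference of 0.42 ± 0.099 log2 units (SE, limma adjusted p = 0.110), and its further probe set stood at 0.095. Prkar2b, a regulatory subunit of protein kinase A, stood at 0.19. Creb1, the factor that binds cAMP response elements, stood at 0.072, and at -0.0068 without Blnc1 replicate 1.

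The type 2 deiodinase is a short-lived selenoenzyme, so the genes that tag it for degradation and those that make selenoproteins were described as well. Of 5 measured genes of Dio2 ubiquitination none passed (median -0.063). Wsb1, the adaptor of an E3 ligase that recognises the enzyme, stood at 0.25. The deubiquitinases Usp33 and Usp20, which can rescue it, stood at -0.24 and -0.068. Of 5 measured selenoprotein synthesis genes none passed (median 0.040). Eefsec, the elongation factor for selenocysteine, read 4.82 and 4.75 in Blnc1 and 5.18 and 5.16 in vector cells (log2 fold change -0.38 ± 0.077 SE, limma adjusted p = 0.0866). Pstk, a kinase that acts on the selenocysteine tRNA, stood at 0.23 and Sephs2, a selenophosphate synthetase, at 0.12.

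At the receptors, none of the 5 genes for thyroid hormone receptors and RXR partners passed. Of these, 4 were negative (median -0.20), where 51.6% of all genes were positive. Among the 4, Rxrg stood at -0.0027 with overlapping groups. Rxra read 7.14 and 6.89 in Blnc1 and 7.49 and 7.35 in vector cells (log2 fold change -0.40 ± 0.11 SE, limma adjusted p = 0.144), and its further probe set stood at -0.063. Rxrb stood at 0.24. The receptor list's summed log2 level was 31.8 and 31.3 on the Blnc1 arrays, against 32.3 and 32.4 on the vector arrays.

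Coactivators and corepressors likewise gave no call as reported. With a variance prior that follows intensity, Ppargc1b and Nrip1 passed (limma adjusted p = 0.0010 and 0.0041), as did 2174 of all 23599 probe sets. The calls that follow are as reported. Of 6 measured coactivators none passed (median 0.017). Ppargc1b, a relative of the cold-induced coactivator PGC-1alpha, read 11.01 and 11.02 in Blnc1 and 10.74 and 10.73 in vector cells, a difference of 0.28 with limma adjusted p = 0.134. Crebbp, a histone acetyltransferase, stood at -0.16, and Med1, the Mediator subunit that contacts nuclear receptors, at 0.14. Of 4 measured corepressor genes none passed (median -0.065). Nrip1, a corepressor known to hold down Ucp1 in mouse fat, read 9.31 and 9.28 in Blnc1 and 9.59 and 9.64 in vector cells (log2 fold change -0.32, limma adjusted p = 0.118), and its 2 further probe sets stood at -0.26 and -0.36. Gps2 and Tbl1xr1, subunits of the corepressor complex, stood at 0.26 and -0.19.

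Among genes known to respond to thyroid hormone in fat, liver or other tissues, 15 of 18 listed were measured. Ucp1 rose, none fell, 7 were positive and the median was -0.025. Ucp1, also a listed brown adipocyte marker, read 7.97 and 8.05 on the Blnc1 arrays and 5.01 on each vector array, a difference of 2.997 ± 0.078 log2 units (SE, adjusted p = 2.70e-04 by limma). Cpt1a, the liver form of the enzyme that admits fatty acids to mitochondria and a hormone-induced gene in liver, read 4.80 and 4.89 in Blnc1 and 5.39 and 5.38 in vector cells (log2 fold change -0.54 ± 0.079 SE, limma adjusted p = 0.0526). Fgf21, a secreted metabolic hormone, stood at -0.28. The other 12 genes, Thrsp and Klf9 included, lay between -0.24 and 0.21.

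**Figure D3:**
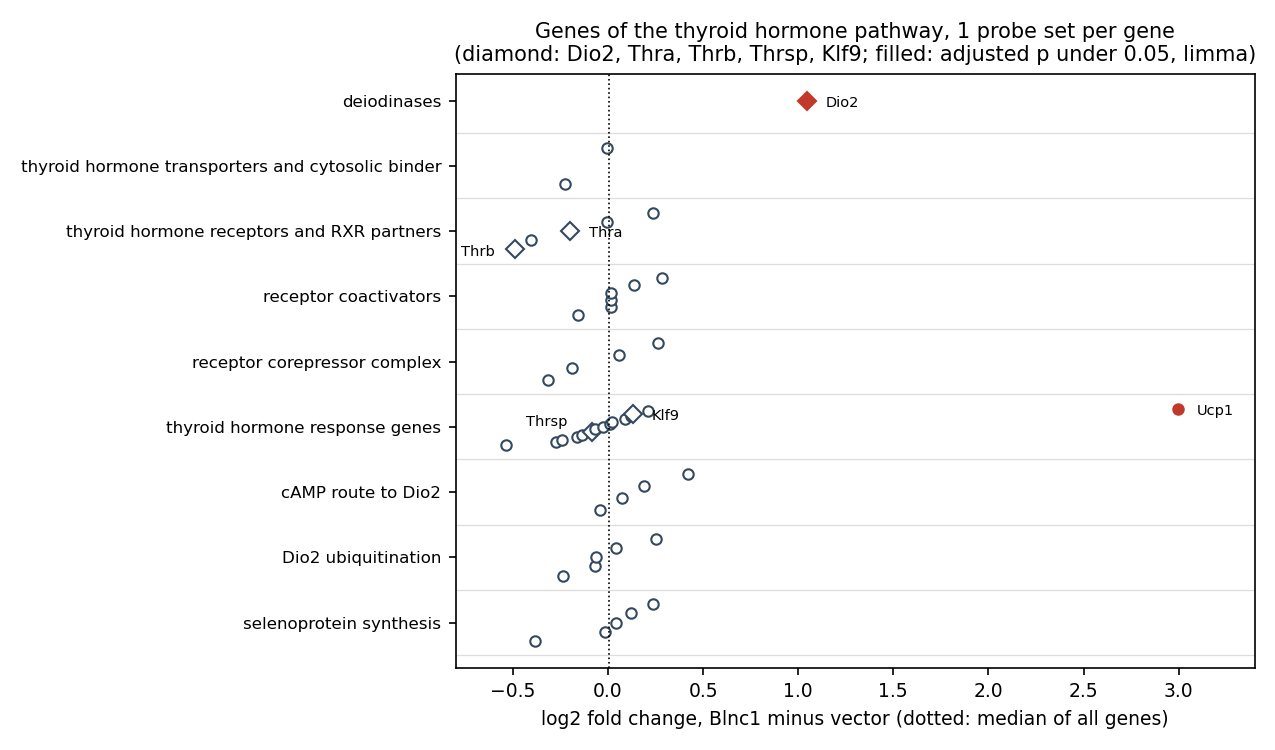
Log2 fold change (Blnc1 minus vector) of the 47 measured pathway genes by role, 1 probe set per gene; diamonds are Dio2, Thra, Thrb, Thrsp and Klf9, filled symbols passed limma at an adjusted p of 0.05, and the dotted line is the median of all genes. Dio2 at 1.05 and Ucp1 at 2.997 are filled and stand apart to the right of the other genes.

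How far the calls of Dio2 and Thrb rested on the model is shown by their adjusted p under each setting. Dio2 had a value under 12 alternatives and passed under 6 of them. Thrb had a value under 12 and passed under 1. The looser threshold of 0.1 is not counted among these, and Thrb as reported (limma adjusted p = 0.0736) was under it. Both kept their sign under all 12. Dio2 and Thrb had 1 probe set each, so the other choices of probe sets left their values unchanged. Those choices altered only the shared variance and the number of tests.

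**Figure D4:**
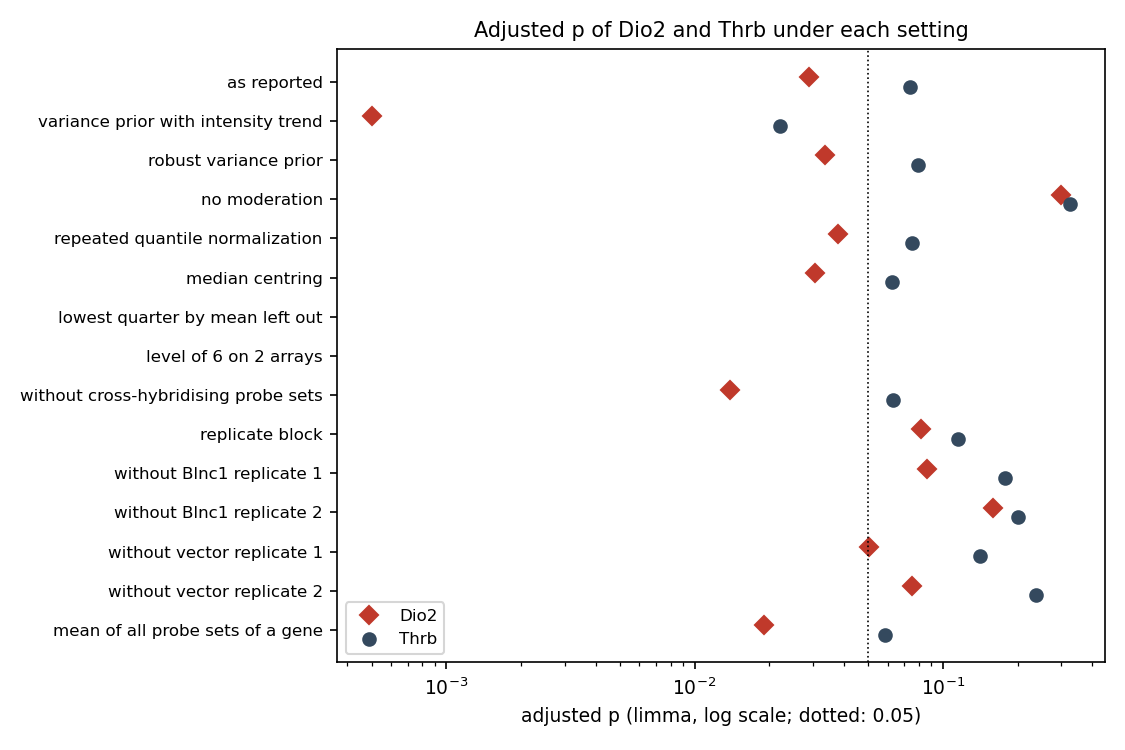
Adjusted p (limma, log axis) of Dio2 and Thrb as reported and under each alternative; the dotted line is 0.05 and an empty row means that the probe set was removed by a filter on dim signal. Dio2 lies right of the line with the replicate number as a block, without moderation and without each single array, and Thrb lies left of it with a variance prior that follows intensity.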

How the data were processed

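Biotin-labelled aRNA from total RNA was read on Affymetrix mouse PM Strip arrays with 1 colour, per the labels' protocols. Expression values on a log2 scale, 1 per probe set and array, were deposited by the authors. RMA (background correction, quantile normalization, median polish), affy and limma are named without versions or order, per the submitters' processing notes; the log2 scale was read from the range of 2.70 to 13.3. Raw intensities were not used here. Of 23634 probe sets, 35 controls were left out. Platform annotation named 16692 of the other 23599 with 1 symbol, 372 with several (left unnamed) and 6535 with none.

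The 4 arrays were fitted with limma 3.58.1 in R 4.3.3 (lmFit, eBayes, two-sided, no covariate, no filter), with Benjamini-Hochberg adjustment over all 23599 probe sets; the code was tested on simulated data. The prior had 3.95 degrees of freedom. The number of arrays limits the precision: an exact permutation test of 2 against 2 cannot go below p = 0.333. Where several probe sets named a gene, the one of highest mean across the arrays stood for it. Named pathway genes are the members, genes that passed and the 3 with the smallest p in each list. The members and lists were chosen with earlier results of these data known. The alternatives were other variance models, normalizations, dim-signal filters, probe set choices and thresholds, a replicate block, and leaving out each array. Promoter windows and motifs were read with Python 3.11.15 from RefSeq tables (GRCm38.p6). Genes without a probe set of exactly 1 symbol were not analysed here, and scan dates were not used here.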

Additional observations from a re-analysis of the deposited data

How the results depend on the processing

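All alternatives were listed together with the design. Over the 5 genes, each on its brightest probe set, the sign held in every alternative that gave a value. Dio2 passed under 6 of 12 (adjusted p 5.03e-04 to 0.300 over the 12, log2 fold change 0.95 to 1.15). It did not pass without moderation (1.05, adjusted p = 0.300), with the replicate number as a block (1.05, limma adjusted p = 0.0819), or without any single array (0.95 to 1.15); the last 2 have fewer residual degrees of freedom. Both filters on dim signal removed Dio2 and Thrb, so these have no value there. Thrb passed with an intensity trend in the prior (-0.49, limma adjusted p = 0.0221), and as reported was under the threshold of 0.1 (limma adjusted p = 0.0736). Thra, Thrsp and Klf9 passed under none.

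The count of member probe sets past the threshold, 1 as reported, was 2 with the intensity trend and at an adjusted p of 0.1. It was 0 without moderation, under both filters and with the replicate block, where 4, 1 to 2, and 3 had an unadjusted p under 0.05. Over all probe sets, 3204 of 23599 had such a p without moderation and 4710 of 23599 with the block. Under the filters, 4057 of 17699 had one without the lowest 25% by mean, and 3566 of 12019 with a level of at least 6. Pathway genes past the threshold, 2 as reported, numbered 12 with the trend, 0 without moderation (14 unadjusted), 4 with a level of at least 6 on 2 arrays, 1 with the block, 1 without each array and 5 at an adjusted p of 0.1. All probe sets past the threshold, 219 as reported, numbered 2174, 0 (3204 unadjusted), 1076, 30, 3 to 38 and 958 in the same order, and 334 without the lowest 25% by mean; the cause of the gap between variance models was not tested.

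Same-numbered replicates deviated together with a correlation of 0.089 over probe sets, and 2 pairs cannot show whether the numbers pair the samples. Among further results, signs turned only when single arrays were left out: the dimmer Thra probe set ranged from -0.12 to 0.25, the dimmer Thrsp probe set from -0.12 to 0.0020, Slc16a10 from -0.057 to 0.047 and Creb1 from -0.0068 to 0.15. Several pathway genes that did not pass as reported passed under some alternative. Cpt1a did so under 5 at the 0.05 threshold, with limma adjusted p from 0.0158. With the intensity trend Ppargc1b, Nrip1 and Prkar2b did so (limma adjusted p = 0.0010, 0.0041 and 0.0127). Rxra, Slc7a5 and Adcy3 did so under it as well (limma adjusted p = 0.0325, 0.0343 and 0.0355). Ppargc1b, Nrip1 and Adcy3 also did so with a level of at least 6 on 2 arrays (limma adjusted p = 0.0444, 0.0395 and 0.0449).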

Other observations

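Of the 47 measured pathway genes, 36 had a RefSeq promoter window. TGACGTCA was found in the windows of 2 of them, Dio2 and Wsb1, beside 3.65% of 8803 genes of the deposited table. AGGTCA was found for 7 of the 36, beside 15.2%, and the direct repeat of 2 AGGTCA half-sites 4 bases apart for none of the 36 and none of the 8803 genes. Among the 12 hormone response genes with a window, 3 held AGGTCA. The windows reach 250 bases upstream, and known response elements of such genes can lie farther away.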
